A study of Camellia sinensis with 12 samples.

Results

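Leaves of tea (Camellia sinensis cv. Longjing43) withered for 15 h were compared with leaves of 0 h, and the genes whose level at 15 h stood above or below that of each other time sampled were described in depth. All genes of the count table entered, and each was identified by the description the table gives it. The comparison used 6 of the 12 libraries, 3 of 15 h and 3 of 0 h, and the 3 libraries of 9 h and the 3 of 24 h served to find the genes highest or lowest at 15 h. Of 52332 genes in the table, 33268 had a count in at least 1 library and 26712 passed the filter on low counts and were tested. All samples were shoots of a bud with its 2 youngest leaves, all from 1 cultivar and kept at 25°C in a climate chest. The sample labels give the light as 0 lux whereas the study's methods describe lit leaves, so the light the leaves received is not settled. No leaves kept fresh for 15 h were among the samples, so withering, the hour of the day and the time since plucking cannot be told apart.

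A plucked tea shoot left to wither dries slowly while its cells remain alive. Leaves that lose water are known to close their stomata, to build up protective proteins and sugars, to take down their photosynthetic machinery and to release amino acids from protein. Abscisic acid and jasmonate are the best known hormones of this response, and the cuticle, a film of cutin and wax on the epidermis, is what limits water loss once stomata are closed. Photosynthesis genes lie in the plastid and the nuclear genome. The reaction centre cores and the large subunit of rubisco are encoded in the plastid and the antenna proteins and most other subunits in the nucleus.

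Each library held between 87776322 and 91804995 counts at 15 h and between 64931031 and 85190458 at 0 h, with 83365579 to 118261728 at 9 h and 66920678 to 97055141 at 24 h. Levels are CPM, counts divided by the library's total and set to a common total, scaled by the TMM method, which corrects for libraries in which a few genes take many counts, and they were compared only within a gene because they are not corrected for length. The TMM factors were 0.966 to 1.03 at 15 h and 1.21 to 1.24 at 0 h, with 1.06 to 1.065 at 9 h and 0.758 to 0.793 at 24 h. With library size alone in place of TMM, the median log2 fold change of all genes moved to -0.3, and the share of higher genes among those that changed was 35.6% in place of 51.1%. Marker lists were matched by words in descriptions. The summed level of 17 leaf mesophyll markers was 3753 to 4752 CPM at 15 h and 11250 to 17890 CPM at 0 h, with 13 of them lower. These markers were matched by light-harvesting and rubisco descriptions. They are therefore no check separate from the photosynthesis genes described below. The summed level of 32 pollen and anther genes was 274.2 to 299.1 CPM at 15 h and 472.5 to 517.6 CPM at 0 h. A smaller share of cells of a type and less RNA per cell cannot be told apart in whole leaves. Neither the labels nor the study's methods state if the 3 libraries of each time are from separate leaves. The p-values therefore rest on how far these libraries vary, and that variation could be technical.

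Between 15 h and 0 h, 8081 genes rose and 7738 fell at an adjusted p under 0.05 (edgeR's quasi-likelihood test with Benjamini-Hochberg adjustment), which is 30.3% and 29.0% of the genes tested. The median log2 fold change was 0.99 among the genes that rose and -1.19 among those that fell. Of the genes that rose, 3998 did so at least 2-fold and 989 at least 8-fold, and of those that fell, 4554 did so at least 2-fold and 761 at least 8-fold. The 3 libraries of 15 h did not overlap those of 0 h in 7895 of the genes that rose and 7628 of those that fell. These genes had already been called from the same libraries, so the 2 counts are a description and give no further support. The share without overlap over all genes tested is not given here.

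The largest rises among described genes included a transporter, a sugar enzyme and a detoxification enzyme. Nitrate transporter 1.5 (MSTRG.2631), which in Arabidopsis loads nitrate into the xylem, had 24.8, 31.96 and 28.6 CPM at 15 h, against 0.0573, 0 and 0.115 CPM at 0 h (log2 fold change 9.05 ± 0.40 SE, adjusted p = 7.32e-10). Galactinol synthase 2 (MSTRG.42832), the first committed enzyme of raffinose synthesis, had 373, 364 and 381 CPM at 15 h, against 2.76, 3.24 and 1.98 CPM at 0 h (log2 fold change 7.12 ± 0.17 SE, adjusted p = 5.49e-12). Glutathione S-transferase TAU 19 (MSTRG.24326), of a family that couples glutathione to reactive compounds, had 35.2, 38.1 and 46.0 CPM at 15 h, against 0.0918, 0.0385 and 0.2295 CPM at 0 h (log2 fold change 8.45 ± 0.33 SE, adjusted p = 2.22e-10). The largest rises and falls were taken only from genes whose libraries of 15 h and 0 h did not overlap. All 3 of these genes were higher again at 24 h, where their means were 94.3, 1033 and 74.6 CPM. A major facilitator superfamily transporter (MSTRG.33710, log2 fold change 7.48) and a nucleotide-diphospho-sugar transferase (MSTRG.49930, 7.17) followed the same course.

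The other 3 of the 8 largest rises differed widely between libraries of the same time. Rotamase cyclophilin 5 (MSTRG.41678), a protein-folding enzyme, had 8.25, 7.79 and 7.18 CPM at 0 h and 10.7, 8.36 and 1626 CPM after 9 h. The libraries of 15 h held 3454, 3442 and 25.2 CPM and those of 24 h held 21.4, 2122 and 2341 CPM (log2 fold change over 0 h 8.22 ± 2.43 SE, adjusted p = 0.0105). Calcium-dependent protein kinase 24 (MSTRG.28672) had 0.0229, 0.0192 and 0.0255 CPM at 0 h and 0.183, 12.5 and 15.3 CPM after 9 h. Its levels were 17.7, 0.125 and 66.2 CPM after 15 h and 139, 19.7 and 144 CPM after 24 h (log2 fold change over 0 h 10.20 ± 2.46 SE, adjusted p = 0.00299). A 2-oxoglutarate and Fe(II)-dependent oxygenase (MSTRG.24475) had 27.8, 3.27 and 2.52 CPM at 15 h, against 0.103, 0.0192 and 0.115 CPM at 0 h (log2 fold change 7.20 ± 1.28 SE, adjusted p = 0.000307). For each of the 3 genes at least 1 library of 15 h lay more than 5-fold from the others, so the mean of that time does not describe its libraries.

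The largest falls included genes for volatile terpenes, starch breakdown and the cell wall. A terpene synthase described as 1,8-cineole synthase (MSTRG.24732) had 0, 0.261 and 0.276 CPM at 15 h, against 39.6, 51.3 and 50.04 CPM at 0 h (log2 fold change -8.05 ± 0.54 SE, adjusted p = 3.77e-08). Terpene synthase 14 (MSTRG.33222), a linalool synthase in Arabidopsis, had 0.372, 0.136 and 0.207 CPM at 15 h, against 18.2, 22.8 and 19.9 CPM at 0 h (log2 fold change -6.40 ± 0.41 SE, adjusted p = 2.24e-08). Both were near the bottom of their range at 9 h already. Beta-amylase 6 (MSTRG.38775), of the enzymes that release maltose from starch, had 0.255, 0.159 and 0.402 CPM at 15 h, against 25.03, 25.99 and 28.7 CPM at 0 h (log2 fold change -6.61). An inhibitor of invertase or pectin methylesterase (MSTRG.16742) had 0.5101, 1.11 and 1.0 CPM at 15 h, against 83.2, 80.9 and 83.8 CPM at 0 h (log2 fold change -6.57). No library of 15 h reached the level of a 0 h library in any of these 4 genes, which the choice of genes required. The rest of the 8 were an ankyrin repeat protein (MSTRG.39246, -7.98), a tetratricopeptide repeat protein (MSTRG.17814, -7.00), a C2H2-like zinc finger protein (MSTRG.12316, -5.98) and 3-ketoacyl-CoA synthase 6, which was also lowest at 15 h and is described with those genes.

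Most genes did not turn at 15 h. The mean level was highest at 15 h in 3626 of the genes tested (13.6%) and lowest in 3060 (11.5%), whereas it was highest at 0 h in 9659, at 9 h in 4598 and at 24 h in 8829. A gene was called highest at 15 h when the tests against 0, 9 and 24 h each passed in the same direction, and 685 genes met this, 2.56% of those tested. By the same rule 635 genes (2.38%) were called lowest at 15 h. These counts depend on the call rule: where the largest of a gene's 3 one-sided p-values was adjusted in place of 3 separate adjustments, 297 genes were highest and 280 lowest at 15 h. Against 9 h, 5286 genes were higher at 15 h (19.8%) and 4825 lower (18.1%). Against 24 h, 8223 were higher at 15 h (30.8%) and 6913 lower (25.9%). Over all genes tested, the 3 libraries of 15 h lay above the other 9 in 1198 (4.48%) and below them in 733 (2.74%).

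The margin of a gene is the smallest in size of its 3 log2 fold changes, that is its distance from the nearest other time. In the 685 genes highest at 15 h the margin had quartiles of 0.37, 0.57 and 1.02, and a median fold of 1.48. It was at least 1, a 2-fold difference, in 177 genes. The nearest time by mean was 9 h in 297 genes, 24 h in 248 and 0 h in 140, and in 666 genes the 3 libraries of 15 h lay above the 9 others. The median of their highest time mean was 36.0 CPM, against 14.1 CPM over all genes tested. At the threshold, a cytochrome P450 of family 81 (MSTRG.47422) was just inside with a largest adjusted p of 0.04997 and a margin of 0.72, and a lectin receptor kinase (MSTRG.26966) was just outside with 0.0506 and 0.94.

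The 15 largest margins were taken among described genes without overlap of libraries and with a time mean of at least 10 CPM. They belonged to a senescence protease, RING proteins, heat shock proteins, a MYB factor, a laccase, a transposase and immune receptors. Others were those of genes whose descriptions name plastid-encoded proteins. Senescence-associated gene 12 (MSTRG.32242), a vacuolar cysteine protease that marks leaf senescence in Arabidopsis, had 7.83, 9.48 and 10.2 CPM at 0 h, 5.59, 5.796 and 5.81 after 9 h, 96.9, 99.5 and 95.6 after 15 h and 8.64, 3.09 and 2.56 after 24 h. The 3 libraries of 15 h lay close together and the highest of the 9 others had 10.2 CPM, and the margin was 3.41 on the log2 scale. Of 14 tested genes described as senescence-associated gene 12, 3 (21.4%) were highest at 15 h. In the list of autophagy and vacuolar proteases, 3 of 154 (1.95%) were highest and 3 (1.95%) lowest at 15 h. Over all genes tested these shares were 2.56% and 2.38%. A RING finger protein of the C3HC4 type (MSTRG.35551), a class that includes many ubiquitin ligases, had 3.93, 3.24 and 4.35 CPM at 0 h, 4.31, 4.95 and 3.03 after 9 h, 40.3, 39.6 and 38.8 after 15 h and 1.24, 0.4898 and 0.412 after 24 h. A second gene with this description (MSTRG.3744) had 17.4, 16.96 and 20.2 CPM at 15 h and a mean of 1.92 CPM at 0 h, with a margin of 3.07. In both, the libraries of 0 h and 9 h overlapped, and those of 24 h lay below them.

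**Figure D1:**
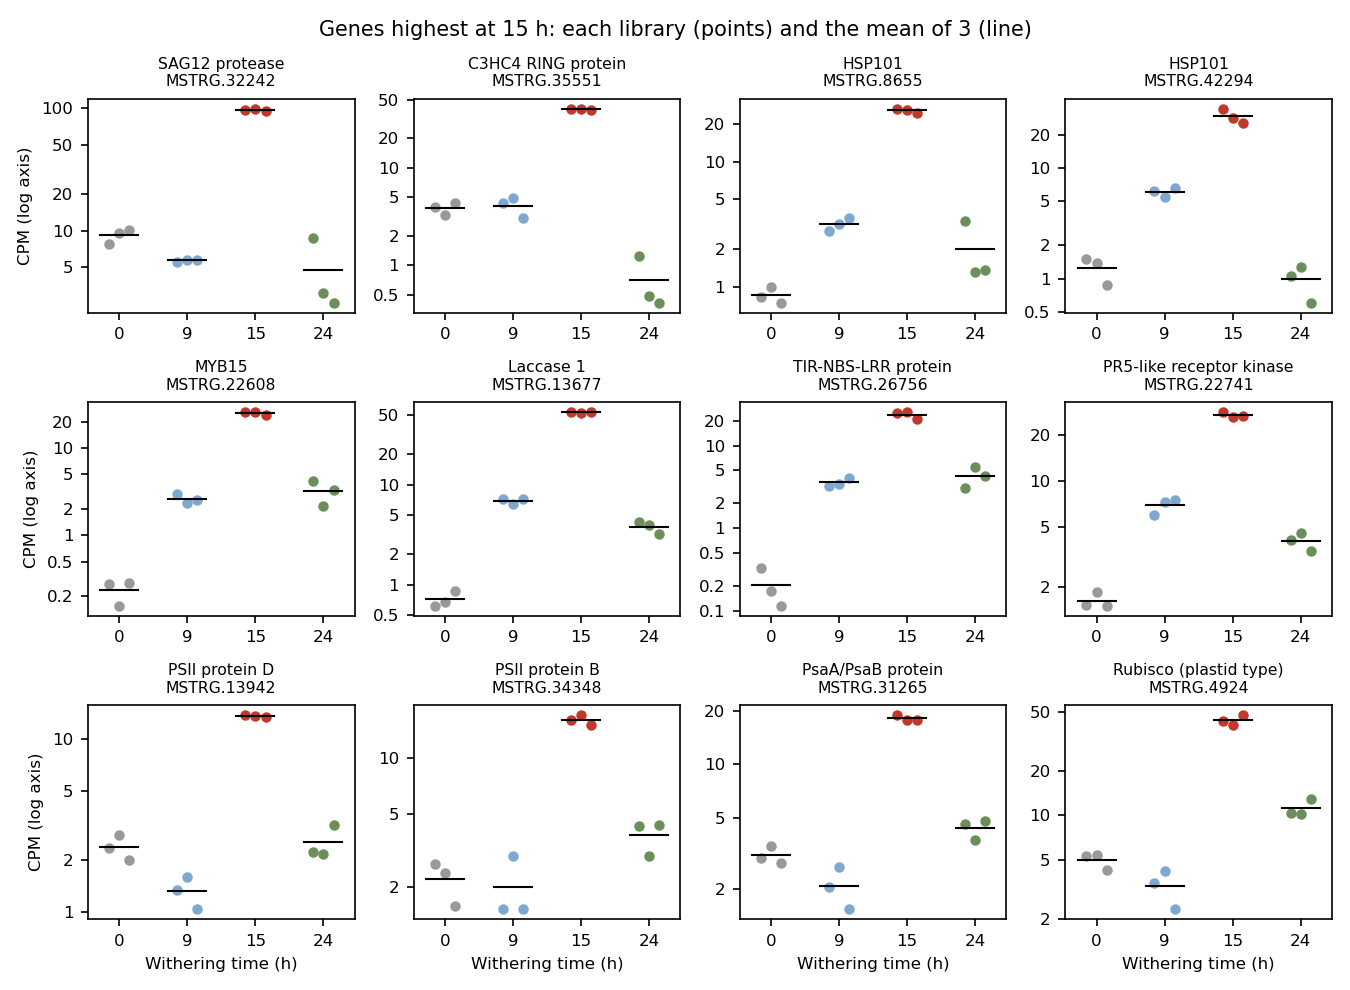
Levels (CPM) of 12 of the genes called highest at 15 h, on a log axis against withering time (categories, not to scale), with a point for each library and a line at the mean of 3. In each panel the 3 points of 15 h lie above the 9 others, which the choice of genes required. SAG12 reaches 95.6 to 99.5 CPM at 15 h.

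Both genes described as heat shock protein 101, the chaperone that pulls aggregated proteins apart, peaked at 15 h. MSTRG.8655 had 0.826, 1.001 and 0.7396 CPM at 0 h, 2.79, 3.16 and 3.54 after 9 h, 26.6, 26.04 and 24.7 after 15 h and 3.33, 1.3 and 1.36 after 24 h, with a margin of 3.03. MSTRG.42294 had 1.49, 1.38 and 0.8798 CPM at 0 h, 6.16, 5.41 and 6.62 after 9 h, 34.3, 28.4 and 25.6 after 15 h and 1.06, 1.28 and 0.602 after 24 h, with a margin of 2.28. This was not a property of the chaperone list, in which 6 of 270 tested genes (2.22%) were highest and 7 (2.59%) lowest at 15 h, close to the shares over all genes (4 lowest without the third library of 15 h). Between 15 h and 0 h, 100 of the 270 rose and 75 fell, but 75 rose and 99 fell with library size alone.

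MYB15 (MSTRG.22608), an R2R3 MYB factor that in Arabidopsis acts in cold response and lignin synthesis, had 0.275, 0.154 and 0.281 CPM at 0 h and 3.01, 2.32 and 2.505 CPM after 9 h. At 15 h there were 25.5, 25.96 and 23.9 CPM and at 24 h 4.16, 2.15 and 3.29 CPM (log2 fold change over 0 h 6.75 ± 0.29 SE, adjusted p = 5.30e-10). Laccase 1 (MSTRG.13677), of the copper oxidases that polymerise lignin units, had 0.608, 0.674 and 0.867 CPM at 0 h and 7.204, 6.37 and 7.15 CPM after 9 h. The level after 15 h was 52.6, 51.7 and 53.3 CPM, and after 24 h it was 4.23, 3.96 and 3.23 CPM (log2 fold change over 0 h 6.20 ± 0.16 SE, adjusted p = 8.53e-12). In both genes the means at 0, 9 and 24 h were far below the mean at 15 h, and the lowest mean was that of 0 h. A different gene with the description MYB15 (MSTRG.34350) ran the other way and was lowest at 15 h, with 17.6 at 0 h, 7.03 after 9 h, 3.29 after 15 h and 12.4 CPM after 24 h. Laccase 7 (MSTRG.40935) was likewise lowest at 15 h, with 17.8 at 0 h, 79.5 after 9 h, 9.42 after 15 h and 86.1 CPM after 24 h. In the MYB list 58 of 150 tested genes rose and 40 fell between 15 h and 0 h (43 and 48 with library size alone). Of the 150, 4 (2.67%) were highest and 6 (4.0%) lowest at 15 h, against 2.56% and 2.38% of all genes.

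Genes of perception at the cell surface made up 59 of the 685 genes highest at 15 h. Receptor-like kinases, which sense peptides, sugars or wall fragments outside the cell, numbered 928 among the genes tested, and those 59 (6.36%) were highest and 16 (1.72%) lowest at 15 h. Between 15 h and 0 h, 320 of the list rose and 201 fell (median log2 fold change 0.35). With library size alone 254 rose and 255 fell, so the balance of rises and falls in this list rests on the scaling, while 56 were highest at 15 h with that scaling. PR5-like receptor kinase (MSTRG.22741) had 1.54, 1.86 and 1.505 CPM at 0 h, 5.94, 7.298 and 7.47 after 9 h, 28.3, 26.3 and 26.7 after 15 h and 4.09, 4.56 and 3.45 after 24 h, with a margin of 1.97. A neighbouring kinase gene on the same scaffold, MSTRG.22739, was also highest at 15 h, with a margin of 1.42. Wall-associated kinase 2 (MSTRG.12788), of the kinases bound to pectin, averaged 2.503 ± 0.515 CPM at 0 h, 6.73 ± 0.571 after 9 h, 22.01 ± 1.58 after 15 h and 5.49 ± 0.853 after 24 h (SD, n = 3), and 7 of 24 genes with this description were highest at 15 h. A leucine-rich repeat receptor kinase (MSTRG.45072) averaged 0.546 ± 0.187 CPM at 0 h, 5.87 ± 0.996 after 9 h, 18.8 ± 2.04 after 15 h and 0.756 ± 0.202 after 24 h (SD, n = 3). Each of these 3 kinases with values had a higher mean at 9 h than at 0 h and fell back below its 9 h mean at 24 h.

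A TIR-NBS-LRR resistance protein (MSTRG.26756), of the intracellular immune receptors, had 0.333, 0.173 and 0.115 CPM at 0 h, 3.27, 3.401 and 4.07 after 9 h, 24.4, 25.5 and 20.7 after 15 h and 3.07, 5.45 and 4.29 after 24 h, with a margin of 2.47. In the list of disease resistance and pathogenesis-related proteins as a whole, however, 15 of 665 (2.26%) were highest and 11 (1.65%) lowest at 15 h, which is near the share over all genes. Calcium sensors, which carry the first signal from many receptors, had 105 of 224 higher and 58 lower after 15 h than at 0 h, and 12 (5.36%) were highest and 9 (4.02%) lowest at 15 h. Calmodulin-like 41 (MSTRG.26634) had 3.29, 2.79 and 4.16 CPM at 0 h, 5.11, 5.82 and 5.37 after 9 h, 14.8, 16.5 and 18.2 after 15 h and 4.74, 4.62 and 3.91 after 24 h, with a margin of 1.60. A calmodulin-binding protein (MSTRG.12770) averaged 2.49 at 0 h, 3.97 after 9 h, 15.9 after 15 h and 6.33 CPM after 24 h. The calcium pump and an EF-hand protein that ran the other way are given with the genes lowest at 15 h.

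WRKY factors, a family of plant transcription factors in defence, senescence and drought, had 53 of 79 tested genes higher and 13 lower after 15 h than at 0 h (median log2 fold change 0.84). Of the 79, 10 (12.7%) were highest at 15 h and 0 were lowest, and with each library left out in turn the first count was between 6 and 11, the 6 without the third library of 15 h. WRKY 55 (MSTRG.16448) had 0.803, 0.674 and 0.816 CPM at 0 h, 8.02, 7.81 and 7.66 after 9 h, 14.3, 13.7 and 14.3 after 15 h and 3.53, 3.07 and 2.88 after 24 h. Its 3 libraries of 15 h lay above the others, as its choice required, with a margin of 0.85. The summed level of the 79 genes did not peak at 15 h: it was 4572 to 4891 CPM at 15 h and 2610 to 2751 CPM at 0 h, with 9366 to 10260 CPM at 24 h. MYB48 (MSTRG.21550), another factor highest at 15 h, averaged 3.81 ± 0.793 CPM at 0 h, 32.5 ± 3.08 after 9 h, 107 ± 3.33 after 15 h and 66.2 ± 6.64 after 24 h (SD, n = 3).

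The clearest group among the genes highest at 15 h carried descriptions of plastid-encoded proteins. Of 39 tested genes described as photosystem II proteins A to E and K, PsaA or PsaB of photosystem I, the large subunit of rubisco, subunits alpha, beta and C of the ATP synthase, or cytochrome f (photosynthetic electron transfer A), 38 rose between 15 h and 0 h and 0 fell (median log2 fold change 2.07). Of them, 38 were also higher at 15 h than at 9 h. Of the 39, 28 (71.8%) were highest at 15 h, and the count lay between 25 and 28 with each library left out in turn. The words that define this list were written after the values were seen, so its counts are a description. Their summed level was 855.2 to 943.9 CPM at 15 h and 259.3 to 301.8 CPM at 0 h, with 172.9 to 206.3 CPM at 9 h and 449.6 to 737.4 CPM at 24 h. Each library of 15 h lay above the 9 others.

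Photosystem II protein D (MSTRG.13942), of the reaction centre, had 2.36, 2.78 and 2.02 CPM at 0 h, 1.35, 1.59 and 1.04 after 9 h, 13.8, 13.7 and 13.5 after 15 h and 2.24, 2.19 and 3.21 after 24 h, with a margin of 2.42. Photosystem II protein B (MSTRG.34348), an inner antenna, had 2.67, 2.38 and 1.59 CPM at 0 h, 1.53, 2.94 and 1.52 after 9 h, 16.02, 17.02 and 15.1 after 15 h and 4.27, 2.94 and 4.32 after 24 h, and all 5 tested genes of this description were highest at 15 h. The adjacent genes MSTRG.31265 (Scaffold393:1041903-1044155) and CSS016112 (Scaffold393:1044181-1046207), both described as PsaA/PsaB, had 18.9, 17.8 and 17.8 CPM at 15 h and 12.8, 12.5 and 12.1 CPM at 15 h, and means of 3.08 and 2.21 CPM at 0 h. All 4 genes had their lowest mean at 9 h and were lower again at 24 h than at 15 h.

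A gene for the large subunit of rubisco (MSTRG.4924), the enzyme that fixes carbon dioxide, had 5.299, 5.41 and 4.25 CPM at 0 h, 3.49, 4.18 and 2.32 after 9 h, 43.1, 40.7 and 47.4 after 15 h and 10.3, 10.2 and 12.8 after 24 h. A second one (MSTRG.47674) averaged 8.18 ± 1.74 CPM at 0 h, 4.18 ± 1.302 after 9 h, 56.1 ± 7.09 after 15 h and 20.97 ± 7.16 after 24 h (SD, n = 3), and both genes of ATP synthase subunit C (MSTRG.30211 and MSTRG.44258) had the same shape, at 18.8 and 17.9 CPM at 15 h and 4.95 and 4.74 CPM at 0 h. Outside the list, 8 of 11 genes described as NAD(P)H dehydrogenase subunit H, also a plastid gene, were highest at 15 h (5 without the second library of 15 h), and 10 of the 11 rose between 15 h and 0 h. Of the listed genes that were not called, all 4 genes of photosystem II protein E had their highest mean at 24 h. The genes lie on numbered scaffolds of the table and many share a description, so reads of 1 transcript may have been divided among them. The labels and the study's methods do not say how such reads were counted. The values of single genes in this group are therefore uncertain, more so than their sum. Each gene was assigned to the plastid by its description alone. Whether its reads came from plastid transcripts or from like sequences on the scaffolds was not tested.

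**Figure D2:**
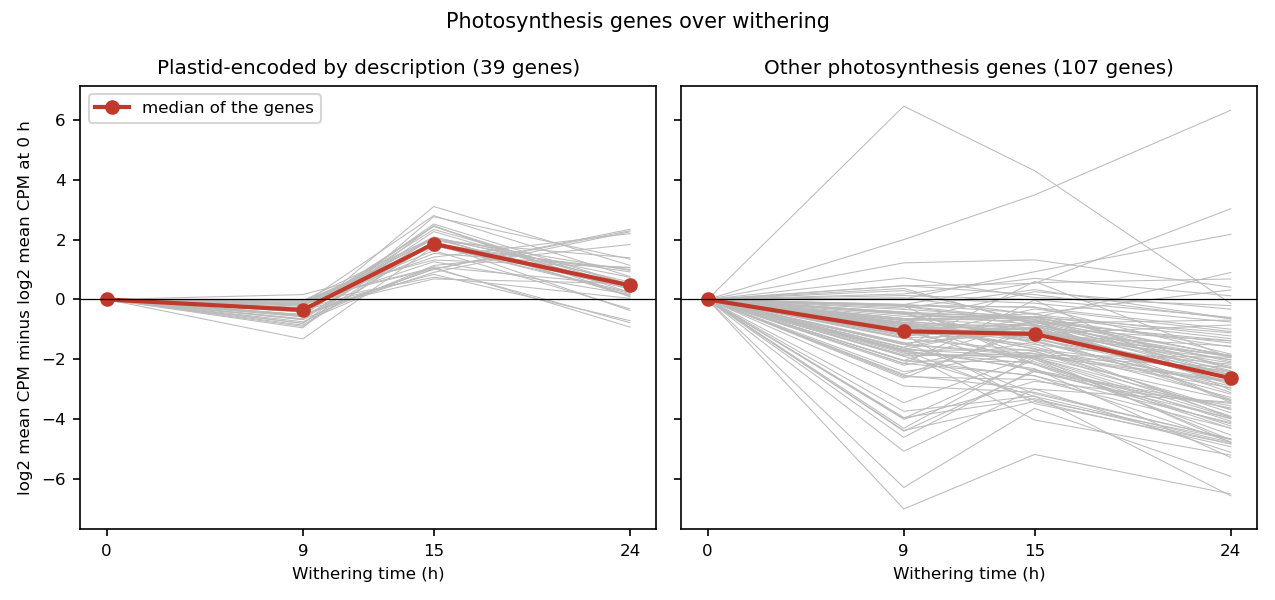
Mean CPM of each time relative to 0 h, on the log2 scale with a pseudocount of 0.1 CPM, against withering time, with a grey line for each gene and the median in red, for 39 genes described as plastid-encoded (left) and 107 other genes of the photosynthesis lists (right). The median is 1.86 at 15 h on the left and -1.15 on the right.

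The other photosynthesis genes moved the opposite way between 15 h and 0 h. Of 107 tested genes of the light-harvesting, photosystem and Calvin cycle lists outside the plastid-encoded list, 5 rose and 86 fell (median log2 fold change -1.16), and 2 were highest and 0 lowest at 15 h. Their summed level was 14530 to 18270 CPM at 15 h and 41470 to 50200 CPM at 0 h. It had reached 15550 to 17700 CPM at 9 h and stood at 5755 to 6901 CPM at 24 h, so that the 3 libraries of 15 h overlapped those of 9 h. Light-harvesting proteins, the antenna of the photosystems, had 1 of 28 higher and 23 lower than at 0 h, but 15 of 28 rose and 1 fell against 9 h (median log2 fold change 1.01). A chlorophyll a/b binding protein (MSTRG.47661) had 697, 594 and 699 CPM at 0 h and 202, 226 and 225 CPM after 9 h. Leaves of 15 h had 876, 945 and 1199 CPM and leaves of 24 h had 171, 176 and 167 CPM (log2 fold change over 0 h 0.60 ± 0.11 SE, adjusted p = 0.000378). It was the 1 antenna gene highest at 15 h.

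Genes of the clock and of light signalling were found both among the highest and among the lowest at 15 h. Pseudo-response regulator 7 (MSTRG.29647), a repressor of the morning clock genes in Arabidopsis, had 61.2, 76.3 and 75.4 CPM at 0 h, 8.45, 9.75 and 10.1 after 9 h, 124, 119.7 and 109 after 15 h and 74.2, 69.5 and 62.8 after 24 h, with a margin of 0.73. CONSTANS-like 9 (MSTRG.48923), a B-box protein of light signalling, was lowest at 15 h, with 112 at 0 h, 74.9 after 9 h, 12.4 after 15 h and 28.1 CPM after 24 h. In the clock and light list 16 of 47 rose and 20 fell between 15 h and 0 h (10 and 22 with library size alone). Of the 47, 3 (6.38%) were highest and 1 (2.13%) lowest at 15 h, against 2.56% and 2.38% of all genes. The labels and the study's methods do not give the hour of the day of each sample.

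Of the genes for protein turnover, the proteasome had nearly all its changes upward. Of 52 proteasome subunits, parts of the particle that degrades ubiquitin-tagged proteins, 33 rose (63.5%) and 1 fell between 15 h and 0 h (median log2 fold change 0.56), and 4 were highest at 15 h, or 2 without the second or the third library of 15 h or of 24 h. With library size alone 24 of the 52 rose and 7 fell. Proteasome alpha subunit D2 (MSTRG.36537) had 72.9, 74.9 and 79.7 CPM at 0 h, 79.99, 86.2 and 90.3 after 9 h, 132, 139 and 159 after 15 h and 118, 91.3 and 97.8 after 24 h. The ubiquitin enzymes and F-box proteins that tag the substrates had 298 of 836 higher and 179 lower (200 and 260 with library size alone). Of the 836, 9 (1.08%) were highest and 9 (1.08%) lowest at 15 h, against 2.56% and 2.38% of all genes. A RING/U-box protein among them (MSTRG.16119) averaged 52.02 ± 2.196 CPM at 0 h, 62.8 ± 3.98 after 9 h, 145 ± 1.52 after 15 h and 26.5 ± 3.67 after 24 h (SD, n = 3). The 3 libraries of 15 h lay above all others for both named genes, which their choice required.

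Mitochondrial respiration had 65 of 115 genes higher and 8 lower after 15 h than at 0 h, and 15 were highest at 15 h. Of these 15, 9 were ATP synthase genes of the plastid-encoded list. Among the other 103 genes, 54 rose and 8 fell (median log2 fold change 0.51) and 6 (5.83%) were highest at 15 h. With library size alone 34 of them rose and 21 fell. The 6 became 2 with DESeq2 size factors or without the third library of 15 h, and 3 without the second library of 15 h or of 24 h. Ribosomal proteins had 66 of 316 higher and 71 lower than at 0 h, and 22 higher and 151 lower with library size alone, and 163 of them rose and 20 fell against 9 h. The 19 ribosomal protein genes highest at 15 h (6.01%) included 60S acidic ribosomal protein genes of the ribosomal stalk. Their number was 7 without the third library of 15 h, 12 without the first of 0 h, 12 with DESeq2 size factors and 10 with library size alone. Translation initiation and elongation factors had 35 of 83 higher and 18 lower than at 0 h (22 and 28 with library size alone). Of the 83, 7 (8.43%) were highest at 15 h, a count that does not hold, since it was 3 with DESeq2 size factors, 1 with library size alone and 4 or fewer without any 1 of 8 of the 12 libraries (all but the first and the third of 9 h and the first of 15 h and of 24 h).

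Single genes of water transport, hormone signalling and secondary metabolism were also among the genes highest at 15 h. An aquaporin described as plasma membrane intrinsic protein 1;4 (MSTRG.41746), of the channels that let water cross the membrane, had 103, 103 and 115 CPM at 0 h and 832, 848 and 823 CPM after 9 h. The libraries of 15 h held 1098, 1135 and 1311 CPM and those of 24 h held 894, 747 and 825 CPM (log2 fold change over 0 h 3.46 ± 0.10 SE, adjusted p = 1.46e-11). Of 40 aquaporins 3 (7.5%) were highest and 3 (7.5%) lowest at 15 h. A protein phosphatase 2C (MSTRG.27849), of a family that includes the repressors of abscisic acid signalling, averaged 3.29 ± 0.412 CPM at 0 h, 24.03 ± 2.05 after 9 h, 42.4 ± 0.435 after 15 h and 7.904 ± 1.14 after 24 h (SD, n = 3). Of 145 genes of abscisic acid synthesis and signalling, 1 (0.69%) was highest and 3 (2.07%) lowest at 15 h. Both shares were below those of all genes, 2.56% and 2.38%. Geranylgeranyl pyrophosphate synthase 1 (MSTRG.30536), which makes the precursor of carotenoids and of the chlorophyll tail, averaged 28.04 ± 1.51 CPM at 0 h, 26.7 ± 1.18 after 9 h, 61.5 ± 6.89 after 15 h and 16.6 ± 2.597 after 24 h (SD, n = 3). A cytochrome P450 of family 72 (MSTRG.23754) averaged 4.66 ± 0.194 CPM at 0 h, 12.3 ± 1.57 after 9 h, 47.2 ± 1.52 after 15 h and 14.4 ± 2.27 after 24 h (SD, n = 3). Of 232 genes for cytochromes P450, 11 (4.74%) were highest at 15 h, but 6 or 7 were with any 1 library of 9 h, any 1 of 15 h or the first of 0 h left out. A late embryogenesis abundant hydroxyproline-rich glycoprotein (MSTRG.21898) had 2.49, 1.97 and 2.74 CPM at 0 h, 1.35, 2.0 and 2.09 after 9 h, 67.9, 76.6 and 98.95 after 15 h and 41.6, 53.2 and 52.2 after 24 h, with a margin of 0.73. In each of these genes the 3 libraries of 15 h lay above the 9 others, which the choice of genes required.

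In the 635 genes lowest at 15 h the margin had quartiles of 0.49, 0.76 and 1.3, a median fold of 1.7, and was at least 1 in 237 genes. The nearest time by mean was 24 h in 276, 0 h in 203 and 9 h in 156, and in 567 genes the 3 libraries of 15 h lay below the 9 others. The median of their highest time mean was 15.1 CPM. The gene just inside the threshold was a UDP-glycosyltransferase (MSTRG.27905), with a largest adjusted p of 0.0495 and a margin of 0.23, and the gene just outside (MSTRG.29964) had 0.05018 and 0.35.

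Among described genes without overlap of libraries and with a time mean of at least 10 CPM, the largest margins below the other times belonged to enzymes, transporters and wall or cuticle genes. A pyridoxal-5'-phosphate-dependent enzyme (MSTRG.3366), of a family that uses vitamin B6 as its cofactor, had 118, 121 and 119 CPM at 0 h and 189.9, 195 and 207 CPM after 9 h. Its levels were 22.7, 23.3 and 22.6 CPM after 15 h and 152, 147 and 147 CPM after 24 h (log2 fold change over 0 h -2.38 ± 0.06 SE, adjusted p = 1.15e-11). The 3 libraries of 15 h lay close together and far below the 9 others. An amino acid transporter (MSTRG.221) had 11.6, 13.5 and 13.2 CPM at 0 h and 29.2, 29.3 and 31.3 CPM after 9 h. At 15 h there were 3.83, 3.796 and 3.896 CPM and at 24 h 44.2, 43.8 and 45.5 CPM (log2 fold change over 0 h -1.74 ± 0.09 SE, adjusted p = 2.86e-09). NADP-malic enzyme 3 (MSTRG.39846), which turns malate into pyruvate, had 118, 109 and 124 CPM at 0 h and 145, 152 and 145 CPM after 9 h. The level after 15 h was 35.6, 38.95 and 37.4 CPM, and after 24 h it was 147, 137 and 139 CPM (log2 fold change over 0 h -1.64 ± 0.07 SE, adjusted p = 6.93e-10). In these 3 genes the level at 9 h and at 24 h was above that at 0 h, so that 15 h was a dip in an otherwise raised course. An aspartyl protease (MSTRG.23738) had the largest margin, 2.40, with 3.69 at 0 h, 10.1 after 9 h, 0.365 after 15 h and 1.94 CPM after 24 h.

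The cuticle, wax and lipid transfer list had the second largest share of genes lowest at 15 h among the pathway lists of at least 20 tested genes, after the jasmonate list. Of 142 tested, 20 (14.1%) were lowest and 3 (2.11%) highest at 15 h, and 35 rose and 49 fell between 15 h and 0 h. With each library left out in turn, 19 to 23 were lowest. The summed level of the 142 genes was 5670 to 6848 CPM at 15 h and 6445 to 7379 CPM at 0 h. It was 5160 to 5800 CPM at 9 h and 8153 to 9069 CPM at 24 h, so its mean was lowest at 9 h. 3-ketoacyl-CoA synthase 6 (MSTRG.7410), which lengthens the fatty acids of leaf wax in Arabidopsis, had 31.9, 30.97 and 36.3 CPM at 0 h and 5.82, 7.298 and 6.65 CPM after 9 h. Leaves of 15 h had 0.553, 0.419 and 0.264 CPM and leaves of 24 h had 2.64, 1.45 and 1.65 CPM (log2 fold change over 0 h -6.32 ± 0.28 SE, adjusted p = 7.21e-10). It fell at each step to 15 h and stood above its 15 h level at 24 h. A GDSL lipase (MSTRG.13392), of a family that includes the enzymes that polymerise cutin, had 23.3, 19.9 and 24.2 CPM at 0 h and 3.21, 6.32 and 5.97 CPM after 9 h. The libraries of 15 h held 1.296, 1.18 and 0.506 CPM and those of 24 h held 2.72, 3.45 and 2.91 CPM (log2 fold change over 0 h -4.49 ± 0.33 SE, adjusted p = 9.90e-08). Of 58 genes with the GDSL description 11 (19.0%) were lowest at 15 h, and 1 that went the other way (MSTRG.48623) averaged 6.07 ± 0.374 CPM at 0 h, 47.2 ± 3.65 after 9 h, 65.8 ± 3.27 after 15 h and 47.02 ± 0.326 after 24 h (SD, n = 3).

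Of the 15 largest margins among these lowest genes, 5 were those of HXXXD-type acyltransferases, enzymes that join acyl groups from coenzyme A to alcohols and amines. MSTRG.33017 had 51.7, 55.5 and 52.1 CPM at 0 h and 21.2, 20.9 and 18.8 CPM after 9 h. Its levels were 3.48, 4.19 and 3.46 CPM after 15 h and 17.1, 9.66 and 16.8 CPM after 24 h (log2 fold change over 0 h -3.84 ± 0.19 SE, adjusted p = 2.52e-09). MSTRG.1348 had 131, 152 and 141 CPM at 0 h and 66.5, 64.9 and 55.1 CPM after 9 h. At 15 h there were 14.8, 11.6 and 16.3 CPM and at 24 h 61.3, 46.01 and 50.02 CPM (log2 fold change over 0 h -3.31 ± 0.15 SE, adjusted p = 7.83e-10). In both, the lowest library of the other times stood more than 2-fold above the highest library of 15 h. MSTRG.23260 followed the same course (22.4 at 0 h, 7.67 after 9 h, 1.65 after 15 h and 5.39 CPM after 24 h), and MSTRG.8448 was lower at 0 h than at 9 h (6.196 at 0 h, 29.4 after 9 h, 1.62 after 15 h and 16.2 CPM after 24 h). The libraries of MSTRG.24549 differed more, with 397, 389.8 and 705 CPM at 0 h, 242, 435 and 137 after 9 h, 22.5, 51.1 and 52.5 after 15 h and 203, 166 and 58.1 after 24 h, and 1 library of 24 h stood close to the upper libraries of 15 h. Of 94 genes with this description, 8 (8.51%) were lowest and 3 highest at 15 h, and 19 rose and 53 fell between 15 h and 0 h (median log2 fold change -1.15). That list was chosen after the values were seen.

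**Figure D3:**
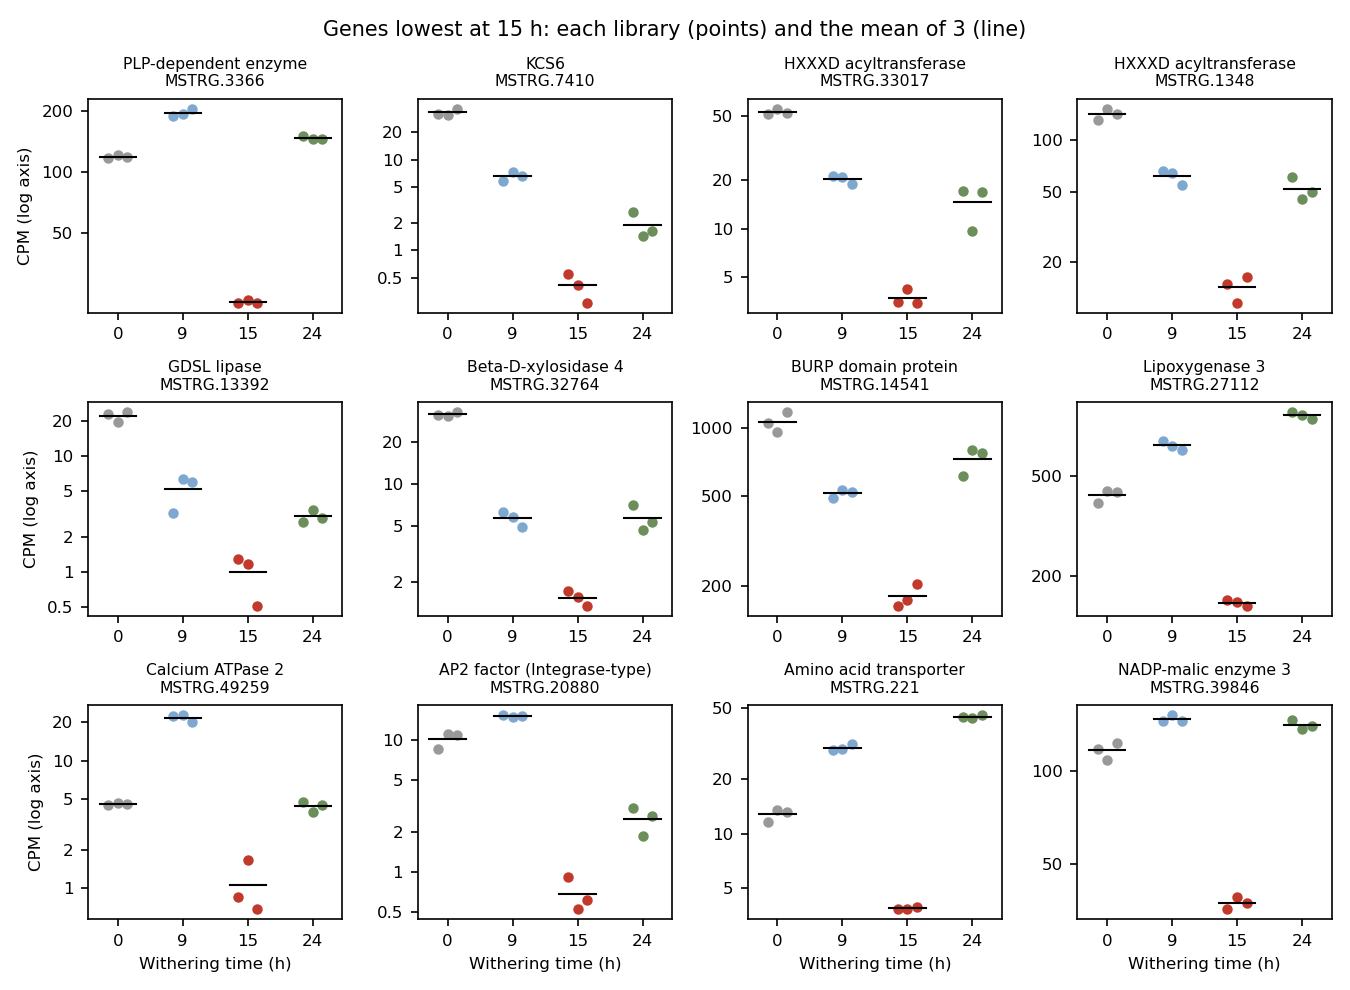
Levels (CPM) of 12 of the genes called lowest at 15 h, on a log axis against withering time (categories, not to scale), with a point for each library and a line at the mean of 3. In each panel the 3 points of 15 h lie below the 9 others, which the choice of genes required. The PLP-dependent enzyme is at 22.6 to 23.3 CPM at 15 h.

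Cell wall genes had 63 of 285 higher and 100 lower after 15 h than at 0 h. Of the 285, 21 (7.37%) were lowest and 4 (1.40%) highest at 15 h (2 without the second library of 15 h). The 21 became 14 without the second library of 0 h, 15 without the second of 15 h and 17 with library size alone. Beta-D-xylosidase 4 (MSTRG.32764), which trims xylan, had 30.9, 30.8 and 32.7 CPM at 0 h and 6.31, 5.75 and 4.93 CPM after 9 h. The level after 15 h was 1.72, 1.54 and 1.33 CPM, and after 24 h it was 7.03, 4.63 and 5.34 CPM (log2 fold change over 0 h -4.36 ± 0.18 SE, adjusted p = 3.56e-10). A pectin acetylesterase (MSTRG.36835) averaged 37.4 ± 3.87 CPM at 0 h, 54.02 ± 2.55 after 9 h, 11.4 ± 1.38 after 15 h and 26.6 ± 2.61 after 24 h (SD, n = 3). Proteins with a BURP domain, a plant domain named after BNM2, USP, RD22 and the polygalacturonase beta subunit, had 3 of 7 tested genes lowest at 15 h, a description chosen after the values were seen. MSTRG.14541 had 1059, 963 and 1182 CPM at 0 h and 492, 530.1 and 524 CPM after 9 h. Leaves of 15 h had 162, 172 and 203 CPM and leaves of 24 h had 614, 804 and 779 CPM (log2 fold change over 0 h -2.57 ± 0.12 SE, adjusted p = 1.41e-09). MSTRG.49395 averaged 1256 ± 376 CPM at 0 h, 786 ± 169 after 9 h, 283 ± 34.2 after 15 h and 1196 ± 97.8 after 24 h (SD, n = 3). Both were abundant at 0 h, dipped at 15 h and had a higher mean at 24 h than at 9 h. A pectin lyase-like gene with an adjacent number (MSTRG.14540) had 7.99 at 0 h, 12.3 after 9 h, 2.68 after 15 h and 7.72 CPM after 24 h, and a Pollen Ole e 1 allergen and extensin family gene (MSTRG.29966) had 4.16 at 0 h, 16.1 after 9 h, 1.09 after 15 h and 21.1 CPM after 24 h.

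The jasmonate and lipoxygenase list had 7 of 43 genes (16.3%) lowest and 2 highest at 15 h, and 9 rose and 25 fell between 15 h and 0 h (median log2 fold change -0.75). Lipoxygenase 3 (MSTRG.27112), which makes the hydroperoxide from which jasmonate is built, had 391, 438 and 434 CPM at 0 h and 691, 663 and 638 CPM after 9 h. The libraries of 15 h held 159, 158 and 151 CPM and those of 24 h held 904, 874 and 848 CPM (log2 fold change over 0 h -1.43 ± 0.07 SE, adjusted p = 1.69e-09). Its level was higher at 9 h and 24 h than at 0 h and lower than any of these at 15 h. Allene oxide cyclase 4 is a later enzyme of the same path, and the 2 genes so described parted. MSTRG.33055 was lowest at 15 h, with 79.2 at 0 h, 11.7 after 9 h, 4.37 after 15 h and 8.63 CPM after 24 h, and MSTRG.18520 was highest at 15 h, with 16.1 at 0 h, 16.4 after 9 h, 28.9 after 15 h and 15.8 CPM after 24 h. The summed level of the 43 genes was 3524 to 3704 CPM at 15 h and 5611 to 6202 CPM at 0 h, with 5845 to 6289 CPM at 9 h and 13180 to 14730 CPM at 24 h. The libraries of 15 h lay below all others.

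The factors of the bHLH family, which holds the MYC regulators of jasmonate response and the phytochrome-interacting factors, had 13 of 136 genes (9.56%) lowest and 5 (3.68%) highest at 15 h, and 25 rose and 63 fell between 15 h and 0 h. With each library left out in turn 8 to 15 were lowest, the 8 without the second library of 15 h. The 5 highest became 2 or 3 without the third library of 0 h or any 1 library of 15 h. MSTRG.11568 had 104, 110.1 and 105 CPM at 0 h, 184, 171 and 157 after 9 h, 47.03, 47.99 and 51.98 after 15 h and 144, 148 and 151 after 24 h. MSTRG.11727 averaged 58.5 ± 6.301 CPM at 0 h, 116 ± 12.6 after 9 h, 27.5 ± 1.78 after 15 h and 122 ± 9.01 after 24 h (SD, n = 3). Both genes were higher at 9 h and 24 h than at 0 h. An AP2 factor, under the description of an Integrase-type DNA-binding protein (MSTRG.20880), had 8.67, 11.1 and 10.99 CPM at 0 h, 15.6, 15.2 and 15.2 after 9 h, 0.924, 0.521 and 0.609 after 15 h and 3.07, 1.86 and 2.66 after 24 h, and its 3 libraries of 15 h were all below 1 CPM.

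Several further genes lowest at 15 h belong to signalling and stress protection. Calcium ATPase 2 (MSTRG.49259), a pump that removes calcium from the cytosol, had 4.47, 4.64 and 4.55 CPM at 0 h and 22.4, 22.8 and 20.1 CPM after 9 h. Its levels were 0.8501, 1.64 and 0.678 CPM after 15 h and 4.73, 3.96 and 4.48 CPM after 24 h (log2 fold change over 0 h -2.11 ± 0.24 SE, adjusted p = 7.06e-06). A calcium-binding EF-hand protein (MSTRG.10275) averaged 174 ± 15.9 CPM at 0 h, 169 ± 7.71 after 9 h, 36.6 ± 0.4896 after 15 h and 86.6 ± 2.16 after 24 h (SD, n = 3). A gibberellin-regulated protein (MSTRG.47407) had 8.76 at 0 h, 5.003 after 9 h, 1.42 after 15 h and 11.3 CPM after 24 h. Cold-regulated 47 (MSTRG.44799), a dehydrin, averaged 234 ± 13.3 CPM at 0 h, 612 ± 25.1 after 9 h, 81.3 ± 6.46 after 15 h and 187 ± 26.2 after 24 h (SD, n = 3), and cold regulated gene 27 (MSTRG.20525) had 8.35 at 0 h, 16.4 after 9 h, 3.21 after 15 h and 8.19 CPM after 24 h. Both cold-regulated genes were higher at 9 h than at 0 h and lower after 15 h than at 0 h. The list of dehydrins and late embryogenesis abundant proteins had 39 of 84 higher and 23 lower after 15 h than at 0 h. Of the 84, 3 (3.57%) were highest and 5 (5.95%) lowest at 15 h, against 2.56% and 2.38% of all genes.

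Enzymes of sugar, aroma and glycoside metabolism were also among them. Sucrose synthase 4 (MSTRG.16758), which splits sucrose, averaged 53.2 ± 1.33 CPM at 0 h, 59.7 ± 7.299 after 9 h, 34.2 ± 1.99 after 15 h and 67.5 ± 9.63 after 24 h (SD, n = 3). An alkaline/neutral invertase (MSTRG.8888) averaged 48.6 ± 0.619 CPM at 0 h, 15.2 ± 0.998 after 9 h, 9.37 ± 1.37 after 15 h and 48.1 ± 5.11 after 24 h (SD, n = 3). The raffinose, trehalose and sucrose list had 24 of 46 higher and 12 lower after 15 h than at 0 h, with 4 lowest (2 without the second or the third library of 15 h) and 0 highest at 15 h. A chloroplast beta-amylase (MSTRG.32627) had 110.0 at 0 h, 36.8 after 9 h, 3.66 after 15 h and 6.701 CPM after 24 h (log2 fold change -4.91). The cytochrome P450 82G1 (MSTRG.41080), in Arabidopsis a synthase of volatile homoterpenes, had 162 at 0 h, 10.5 after 9 h, 3.27 after 15 h and 9.41 CPM after 24 h. UDP-glucosyl transferase 73B3 (MSTRG.14469) had 90.6 at 0 h, 177 after 9 h, 11.6 after 15 h and 24.9 CPM after 24 h, and in the UDP-glycosyltransferase list, whose members attach sugars to small molecules, 14 of 252 (5.56%) were lowest and 11 (4.37%) highest at 15 h. The 14 became 8 without the first library of 15 h, 9 without the second of 0 h and 8 with library size alone, and the 11 became 7 without the second or the third library of 15 h.

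**Figure D4:**
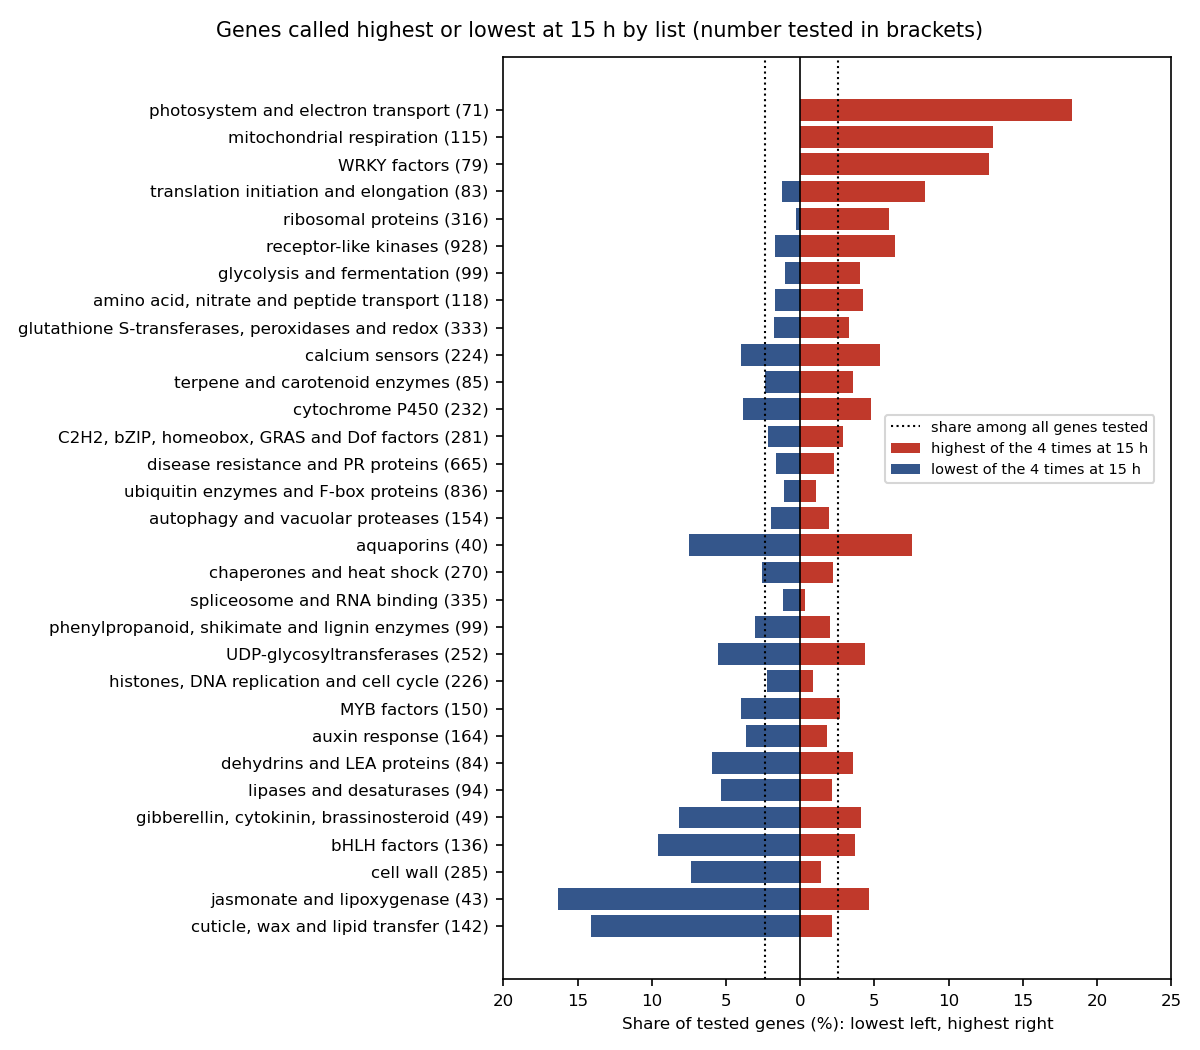
Share (%) of the tested genes of each list called highest at 15 h (red, to the right) or lowest at 15 h (blue, to the left), for the 31 pathway lists of at least 20 tested genes with at least 5 such calls, and the shares among all genes tested as dotted lines (2.56% and 2.38%). The photosystem and mitochondrial lists at the top hold plastid-encoded genes, and the cuticle and jasmonate lists at the bottom reach 14.1% and 16.3% lowest.

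Other lists changed between 15 h and 0 h with few members turning at 15 h. Pentatricopeptide repeat proteins, which edit and process the RNA of plastids and mitochondria, had 5 of 312 higher and 220 (70.5%) lower after 15 h than at 0 h (median log2 fold change -1.39), and 0 were highest and 2 lowest at 15 h. The direction was the same with each library left out, when 197 to 235 fell. Flavonoid and catechin enzymes, which make the main polyphenols of tea, had 3 of 29 higher and 16 lower (median log2 fold change -1.04), and 0 were highest and 1 lowest at 15 h. Spliceosome and RNA-binding proteins had 74 of 335 (22.1%) higher and 109 (32.5%) lower, the second near the 29.0% of all genes, and 38 and 172 with library size alone.

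The genes the study followed for L-theanine, the characteristic amino acid of tea, were raised at 15 h and none was called highest or lowest there. CsPDX2.1 (MSTRG.33795), described as pyridoxine biosynthesis 2, had 111, 115 and 116 CPM at 0 h and 189.6, 202 and 170.3 CPM after 9 h. At 15 h there were 197, 149 and 188 CPM and at 24 h 135, 162 and 154 CPM (log2 fold change over 0 h 0.64 ± 0.11 SE, adjusted p = 0.000177). The libraries of 15 h overlapped those of 9 h and of 24 h, and the gene was not highest at 15 h by the 3 tests. The second gene of this description (MSTRG.9423) had 1.05, 1.17 and 1.17 CPM at 0 h and 2.16, 2.98 and 2.31 CPM after 9 h. The level after 15 h was 3.63, 2.45 and 3.59 CPM, and after 24 h it was 2.202, 2.299 and 1.25 CPM (log2 fold change over 0 h 1.51 ± 0.27 SE, adjusted p = 0.00028). Each of the 6 candidate regulators was higher at 15 h than at 0 h and had its highest mean at 9 h. The study picked these 6 from genes whose levels correlated with CsPDX2.1 in this same series. Their shared rise is therefore a description and gives no separate support. CsWRKY40 (MSTRG.6798), described in the table as WRKY 18, had 3.38, 5.08 and 3.37 CPM at 0 h and 15.3, 14.8 and 13.8 CPM after 9 h. Leaves of 15 h had 10.7, 10.7 and 9.28 CPM and leaves of 24 h had 4.01, 1.997 and 3.26 CPM (log2 fold change over 0 h 1.37 ± 0.22 SE, adjusted p = 0.000134). The log2 fold changes of the other 5 between 15 h and 0 h were 0.76 for CsbZIP (MSTRG.22195), 0.98 for CsB3 (MSTRG.24832), 1.82 for CsbHLH (MSTRG.8952), 0.53 for the GRAS factor (MSTRG.35117) and 0.85 for the zinc finger factor (MSTRG.49989).

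Some of the genes that turned at 15 h were next to each other in the order of tested genes along a scaffold. Of the 685 genes highest at 15 h, 59 (8.61%) had another of them next in this order, on either side and at any distance. The share with such a neighbour was 4.45% among all genes tested. Of the 635 lowest, 39 (6.14%) had such a neighbour, against 4.19% of all genes tested. No test was made of either difference. Among the pairs were genes described as plastid-encoded, adjacent leucine-rich repeat receptor kinases and, among the lowest, both alkenal reductase genes of 1 scaffold. Neighbours of the same description may share reads, and the effect of this on the counts was not tested.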

How the data were processed

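The authors deposited raw counts, as whole numbers for each gene and library, with 3 libraries each for 0, 9, 15 and 24 h of withering. Columns were tied to samples by titles whose prefix differs by 1 letter. The submitters' processing notes name HISAT2 2.0.5, StringTie 1.3.1, Trimmomatic and FastQC 0.10.1. Which genome build and strand setting were used, and how reads were counted, is not given in the sources used here. Each library held 64931031 to 118261728 counts.

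The test was the quasi-likelihood test of edgeR 4.0.16 (R 4.3.3), with TMM scaling and the filterByExpr filter by time, in 1 model of the 12 libraries in which time was a factor, and p-values were adjusted by Benjamini-Hochberg over the 26712 genes tested with a threshold of 0.05. A standard error is the log2 fold change divided by the square root of F. A gene was called highest or lowest at 15 h when 15 h against 0, 9 and 24 h each passed in 1 direction. Lists were matched by words in the descriptions, 48 for pathways and 10 for markers and other checks, and are described by counts and medians with no test of the list. The comparison, the members and the lists were chosen with earlier results of these data known. Some words were excluded after the descriptions were seen, and the plastid-encoded, HXXXD and BURP lists, the NAD(P)H dehydrogenase group and the lists less plastid-encoded genes were set after the values were seen. The genes named are the 8 largest rises and falls between 15 h and 0 h, the 15 largest margins each among genes highest and lowest at 15 h, with a description, no overlap of libraries and a time mean of at least 10 CPM, 2 of each class per list under the same minimum, and the study's candidate genes. Not all are printed, and exceptions are the genes at the thresholds and MSTRG.22739, named after their values were seen. The tests were tested on simulated data. Alternatives were DESeq2 1.42.0, its size factors, library size alone, other filters, only the times compared, a replicate block, each library left out, a fold of at least 2 and other call rules. The time mean and SD are of TMM-scaled CPM. Sequences were not used here.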

Additional observations from a re-analysis of the deposited data

How the results depend on the processing

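The direction of each change named above between 15 h and 0 h was the same under each alternative that gave a value for single genes. Its side of the threshold was kept under these, except for 2 genes that define the edges of the classes (MSTRG.27905 and MSTRG.47422). They lost a call in 36 of the 3189 single-gene results. The fold of at least 2 and the other call rules were applied to the counts of genes and are not among these results. Under a fold of at least 2, named genes with a margin below 2-fold were no longer called highest or lowest at 15 h. Examples are WRKY 55 (MSTRG.16448, margin 0.85) and the late embryogenesis abundant glycoprotein (MSTRG.21898, margin 0.73). The 8081 genes that rose and 7738 that fell became 3998 and 4554 with a fold of at least 2, and the 685 highest and 635 lowest at 15 h became 177 and 237. With the largest of the 3 one-sided p-values adjusted, 297 were highest and 280 lowest. With library size alone, 5738 rose and 10390 fell, and 754 were highest and 515 lowest at 15 h, of which 477 and 410 were also called with TMM. With DESeq2, 8300 were higher, 8137 lower, 653 highest and 788 lowest. Leaving out each library in turn gave 7410 to 8267 higher, 6972 to 8349 lower, 487 to 725 highest and 537 to 687 lowest, the fewest highest genes without the third library of 15 h. Same-numbered libraries did not deviate together (correlations of their deviations -0.206 to 0.113 over 18 pairs of libraries), so the numbers were not taken as pairs, and a fit with the replicate number as a block gave 7877 higher, 7558 lower, 622 highest and 596 lowest genes. Depth limits calls for genes of few counts, and levels of a few hundredths of a CPM rest on few counts.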

Other observations

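Further lists are given here by their counts between 15 h and 0 h, where 30.3% of all genes were higher and 29.0% lower. AP2/ERF factors had 30 of 59 genes (50.8%) higher and 16 (27.1%) lower, and 37 of the 59 were lower at 15 h than at 24 h. NAC factors had 37 of 83 (44.6%) higher and 14 (16.9%) lower, and 31 were lower at 15 h than at 9 h. Ethylene genes had 29 of 62 (46.8%) higher and 18 (29.0%) lower, and 41 were lower at 15 h than at 24 h. Genes of abscisic acid synthesis and signalling had 57 of 145 (39.3%) higher and 32 (22.1%) lower, but 48 and 46 with library size alone. Starch enzymes had 10 of 48 (20.8%) higher and 21 (43.8%) lower. Terpene and carotenoid enzymes had 21 of 85 (24.7%) higher and 37 (43.5%) lower, and auxin genes 39 of 164 (23.8%) and 60 (36.6%). Genes of histones, DNA replication and the cell cycle had 40 of 226 (17.7%) higher and 73 (32.3%) lower, or 18 and 104 with library size alone. Ribosome biogenesis genes had 10 of 48 (20.8%) higher and 21 (43.8%) lower, or 4 and 28 with library size alone.

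Lists of markers of other tissues and cells were matched by words in descriptions. The summed level of 53 seed storage genes was 1530 to 1792 CPM at 15 h and 518.5 to 583.6 CPM at 0 h, that of 33 xylem and phloem genes 985.8 to 1124 CPM at 15 h and 967.7 to 1131 CPM at 0 h, and that of 17 meristem genes 56.3 to 60.8 CPM at 15 h and 62.2 to 71.3 CPM at 0 h. It was 60.0 to 73.0 CPM at 15 h and 81.2 to 86.9 CPM at 0 h for 4 guard cell genes, and 283 to 305.3 CPM at 15 h and 340.9 to 343.8 CPM at 0 h for 38 trichome genes. For 2 genes matched as root genes it was 153.7 to 182.4 CPM at 15 h and 17.8 to 19.8 CPM at 0 h, with 1 gene higher and 1 lower, so that the rise of the sum is that of 1 gene. For 264 genes of viral or transposon descriptions it was 936.2 to 1013 CPM at 15 h and 996.9 to 1095 CPM at 0 h. The part of these in the results above was not tested.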
